A study of Mus musculus with 8 samples.

Results

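The aminoacyl-tRNA synthetase genes are described here in mouse leukaemia cells with and without Cdc73, a subunit of the PAF1 complex that accompanies RNA polymerase II. The members are 36 genes, found by symbol among the 23361 genes of the deposited table: 20 that encode cytosolic enzymes and 16, with names ending in 2, that encode mitochondrial ones. All 36 reached 1 FPKM (fragments per kilobase, a level scaled for transcript length and library size) in every group, so no member was lost to a filter on low values. The list does not hold every synthetase gene of the table, since Tarsl2, for example, is outside it.

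Poly(A) RNA came from acute myeloid leukaemia lines of strain 129S6, grown from bone marrow cells that had been transduced with the fusion oncogene MLL-AF9 and with an inducible Cre recombinase. The floxed group was Cdc73fl/fl CreERT2 and the wild type group Cdc73 +/+ CreERT2. Each received 7.5 nM 4-hydroxytamoxifen (4OHT), which activates CreERT2, for 24 or 48 h, so that every group carried the oncogene, Cre and the drug. The 4 groups hold 8 libraries, 2 biological duplicates in each, and the genotype comparison asks what changes once Cdc73 is excised. The table gives 1 FPKM value per group with the duplicates already combined, so each level below is the authors' value with no SD, and the spread between duplicates is not seen. A gene is called where the authors' q is under 0.05, and its direction is that of the FPKM values. The genotypes are separate lines, and without untreated cells among the libraries a difference present before 4OHT cannot be told apart from one that followed it. In such bulk RNA, fewer cells of a type and less RNA per cell cannot be told apart either.

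The Cdc73 transcript measured 26.2 FPKM in the wild type line and 5.96 in the floxed line at 24 h, and 26.9 and 5.45 at 48 h. Of 8 myeloid markers all were present (summed 1586 to 2394 FPKM), and 13 markers of T, B, erythroid, stromal and liver cells reached at most 0.555 FPKM, with Cd3e and Col3a1 among those at 0 in all groups. At 24 h 3 of the myeloid markers had the higher level in the floxed line and 5 the lower, and at 48 h 4 and 4. Mpo, a granule enzyme, measured 1145 FPKM in the wild type line and 1986 in the floxed line at 24 h, and 1368 and 1011 at 48 h, and Cebpa, a myeloid transcription factor, 68.8 and 35.7, then 74.3 and 59.7. At 48 h Hoxa9 measured 36.1 and 52.4 FPKM, Itgam 45.8 and 100.1, and Kit 17.1 and 5.42. The part of these shifts in the results below was not tested.

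Aminoacyl-tRNA synthetases join each amino acid to its tRNA, the step that sets the meaning of the genetic code. Nuclear genes encode all of them, mostly as separate enzymes for the cytosol and for mitochondria, while Gars and Kars serve both compartments. They fall into class I and class II by the fold of the catalytic domain. In mammals a set of cytosolic enzymes is held in the multi-synthetase complex by the scaffold proteins Aimp1, Aimp2 and Eef1e1. Many cytosolic synthetase genes are induced by the transcription factor ATF4 when amino acids are scarce, and dividing cells need high synthetase levels to sustain protein synthesis.

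In wild type cells most cytosolic genes had higher levels per length than the mitochondrial genes, but mitochondrial Lars2 was the highest of the family and Iars2 lay above cytosolic Cars. At 24 h the cytosolic genes had a median level of 78.1 FPKM and ranged from 31.2 for Cars (cysteine) to 219 for Nars (asparagine). Gars (glycine) followed Nars at 167 FPKM and Dars (aspartate) came next at 141 FPKM. The mitochondrial genes had a median level of 9.45 FPKM and ranged from 2.84 for Wars2 (tryptophan) to 240 for Lars2 (leucine). The next highest mitochondrial gene after Lars2 was Iars2 (isoleucine) at 42.7 FPKM, so Lars2 held 54.0% of the mitochondrial sum. Of 13 amino acids with 1 gene for each compartment on the list, the cytosolic gene had the higher level for 12 in each of the 4 groups. The exception was leucine, with Lars at 62.6 and Lars2 at 240 FPKM. The plot of levels by group shows how far Lars2 stands from the other mitochondrial genes.

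**Figure D1:**
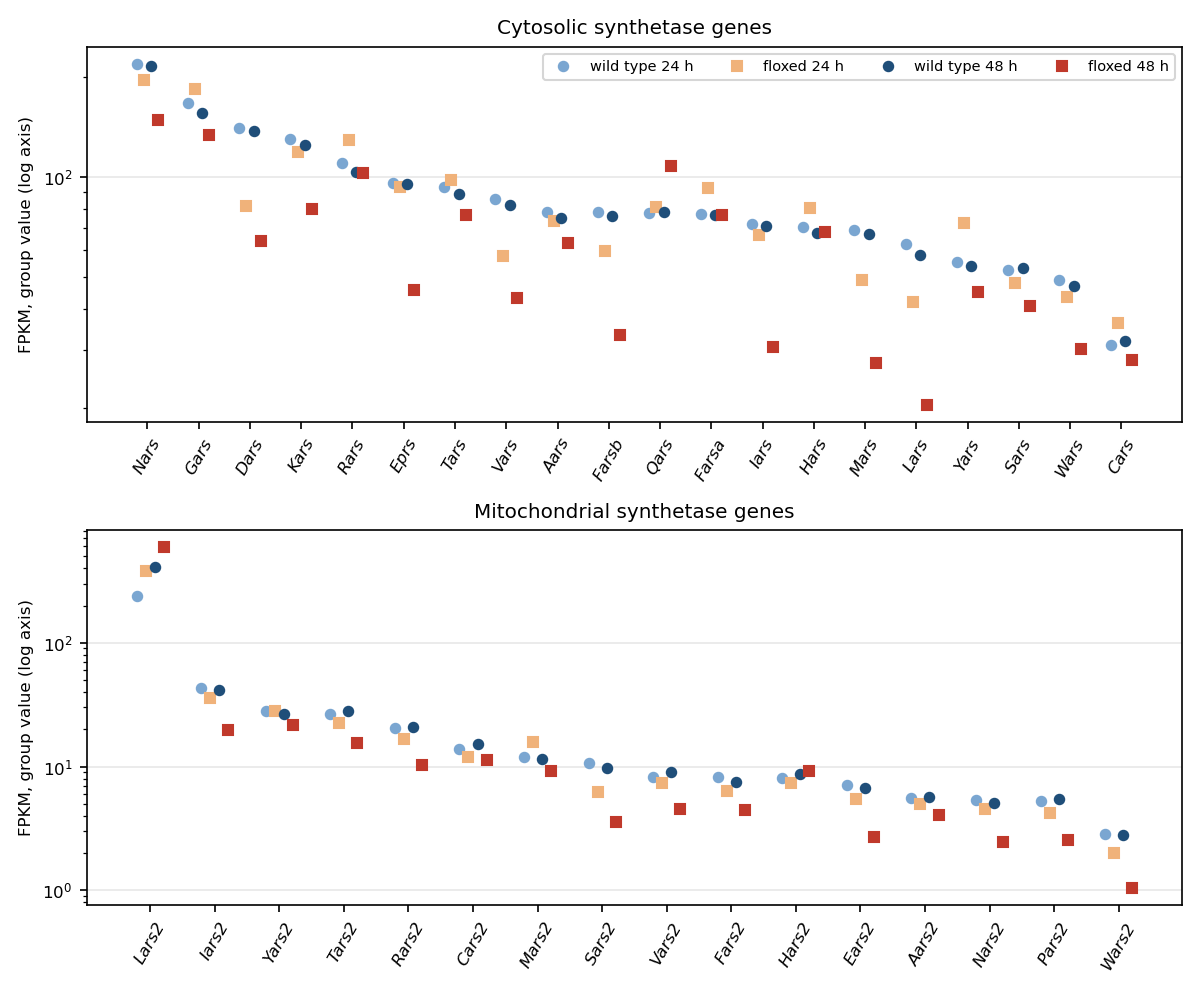
FPKM of each synthetase gene in the 4 groups on a log axis, 1 point per group (the authors' combined value of 2 duplicates), with cytosolic genes above and mitochondrial genes below, ordered by the wild type level at 24 h. The floxed 48 h point is the lowest for most genes, and Lars2 lies at 240 FPKM or more in all groups while no other mitochondrial gene exceeds 42.7.

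At 24 h a minority of the family differed between the lines. Of the 36 genes, 7 were called lower in the floxed line (19.4%, against 14.2% of 10987 tested genes) and 3 higher (8.33%, against 13.4%). In a list of 36 genes these counts are near the shares over all genes. The 7 lower genes were cytosolic Dars, Lars, Vars, Mars and Farsb and mitochondrial Sars2 and Wars2, and the 3 higher genes were cytosolic Yars and mitochondrial Mars2 and Lars2. The median log2 difference, floxed minus wild type on the log2(FPKM + 1) scale, was -0.10 over the cytosolic and -0.23 over the mitochondrial genes, against -0.01 over all 11158 genes that reached 1 FPKM. No test compares the lists with other genes. With a q under 0.01 Farsb, Wars2, Yars and Mars2 had no call.

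At 48 h most of the family was lower in floxed cells. Of the 36 genes, 23 were called lower (63.9%, against 31.0% of 11039 tested genes) and 2 higher (5.56%, against 25.7%). The lower calls took in 11 of 20 cytosolic and 12 of 16 mitochondrial genes, and 13 members were at least 2-fold lower. The share of all genes that were at least 2-fold lower was not counted. The 2 higher genes were Qars and Lars2. The median log2 difference was -0.46 over the cytosolic and -0.83 over the mitochondrial genes (-0.42 with a pseudocount of 5), against -0.06 over all 11158 genes. All 7 genes called lower at 24 h were called lower again at 48 h, where they made up 30.4% of the lower members. Over all genes, 78.2% of those called lower at 24 h were called lower again. The plot of the genotype differences at both times shows this order.

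**Figure D2:**
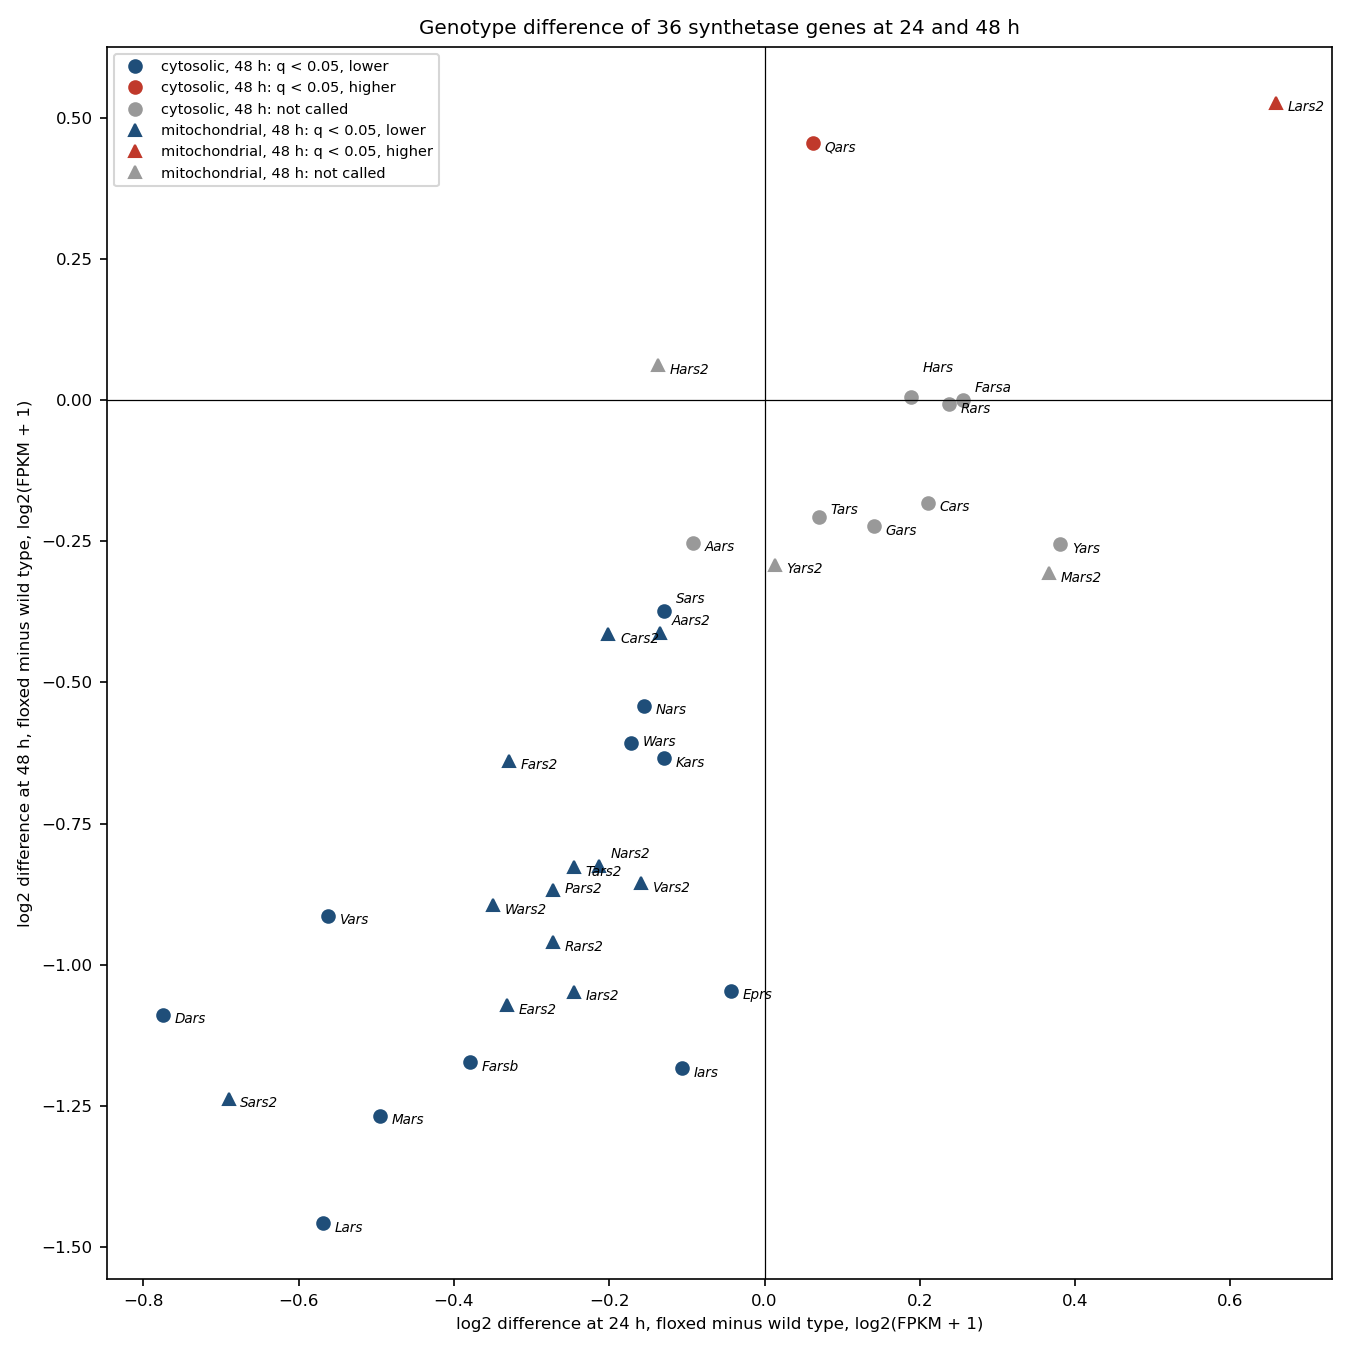
Log2 difference between floxed and wild type cells on the log2(FPKM + 1) scale at 24 h (horizontal axis) and 48 h (vertical axis), 1 point per synthetase gene, with circles for cytosolic and triangles for mitochondrial genes and colour for the authors' call at 48 h. Most points lie below 0 at 48 h, down to -1.46 for Lars, and Lars2 and Qars are the 2 called higher.

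The cytosolic genes with the widest differences were Lars (leucine), Mars (methionine), Iars (isoleucine), Farsb (the beta subunit for phenylalanine), Dars and Eprs (a fused enzyme for glutamate and proline). Lars measured 62.6 FPKM in the wild type line and 41.9 in the floxed line at 24 h, and 58.1 and 20.5 at 48 h, 2.83-fold lower. Mars measured 69.0 and 48.7 FPKM at 24 h (wild type first, here and below) and 67.4 and 27.4 at 48 h, 2.46-fold lower. For both genes each floxed value lay below each wild type value. Iars differed mainly at the later time, with 72.1 and 66.9 FPKM at 24 h (no call) and 70.9 and 30.7 at 48 h, 2.31-fold lower. Eprs had the same order, with 95.8 and 92.9 FPKM at 24 h (no call) and 95.1 and 45.6 at 48 h, 2.09-fold lower. Dars instead was already called at 24 h, at 140.7 and 81.8 FPKM, and measured 137.7 and 64.2 at 48 h, 2.15-fold lower. In the authors' deposited table these 6 genes have q = 0.000165 at 48 h, the smallest q of that time, which 16 of the 36 members share. Dars lies on chromosome 1 of mm10 from 128363707 to 128417368 (minus strand), 15.2 Mb from Cdc73. The other members on chromosome 1 are Iars2, Eprs, Farsb and Mars2, at 41.6, 41.7, 65.1 and 88.4 Mb from Cdc73. Mars lies on chromosome 10 from 127296221 to 127311786 (minus strand). The locus entry of Mars is shared with Ddit3, which overlaps its end on the opposite strand, and the assignment of reads in the overlap is uncertain.

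The other cytosolic genes called lower at 48 h had narrower differences. Vars (valine) was called at both times, with 85.9 and 57.9 FPKM at 24 h and 82.1 and 43.1 at 48 h, 1.90-fold lower. The remaining 4 were called at 48 h only. Kars (lysine) measured 130.2 and 119 FPKM at 24 h and 125 and 80.2 at 48 h, 1.56-fold lower. Wars (tryptophan) measured 48.9 and 43.3 FPKM at 24 h and 46.7 and 30.3 at 48 h, 1.54-fold lower. Nars, the most abundant cytosolic transcript of the family, joins asparagine to its tRNA. It measured 219 and 197 FPKM at 24 h and 217 and 149 at 48 h, 1.46-fold lower. Sars (serine) measured 52.5 and 47.9 FPKM at 24 h and 53.1 and 40.7 at 48 h, 1.30-fold lower, with q = 0.0384 in the authors' deposited table.

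Of the 20 cytosolic genes 9 had no lower call at either time. Qars (glutamine) was the only cytosolic gene called higher at 48 h, with 78.3 and 107.8 FPKM, 1.38-fold, and q = 0.0129 in the authors' deposited table. At 24 h Qars measured 77.9 and 81.4 FPKM with no call. Yars (tyrosine) was called higher at 24 h, with 55.5 and 72.5 FPKM, 1.31-fold, and measured 53.8 and 44.9 at 48 h with no call. Its locus entry is shared with C77080, on the opposite strand. Without a call at either time were Aars, Cars, Farsa, Gars, Hars, Rars and Tars. Gars measured 167 and 184 FPKM at 24 h and 156 and 134 at 48 h. Rars (arginine) measured 109.9 and 129.7 FPKM at 24 h and 103 in both lines at 48 h. Tars (threonine) measured 93.5 and 98.2 FPKM at 24 h and 88.6 and 76.7 at 48 h. These 3 abundant genes each had the higher floxed value at 24 h, with no call. Aars (alanine) measured 78.3 and 73.4 FPKM at 24 h and 75.4 and 63.1 at 48 h. The locus entry of Aars is shared with Exosc6, on the same strand. Hars (histidine) measured 70.5 and 80.5 FPKM at 24 h and 67.7 and 68.0 at 48 h. Cars measured 31.2 and 36.2 FPKM at 24 h and 31.9 and 28.0 at 48 h. With no spread between duplicates at hand, these values do not show that the levels were equal.

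Phenylalanyl-tRNA synthetase is built from equal numbers of alpha subunits, encoded by Farsa, and beta subunits, encoded by Farsb, and the levels of these genes diverged. In wild type cells Farsa and Farsb stood at 77.5 and 78.2 FPKM at 24 h and at 76.8 and 76.4 at 48 h, a ratio of 0.991 and 1.01. In floxed cells Farsa stood at 92.7 and Farsb at 59.9 FPKM at 24 h, a ratio of 1.55. By 48 h Farsa stood at 76.8 and Farsb at 33.3 FPKM in floxed cells, a ratio of 2.31. Farsb was called lower at both times, 1.31-fold and 2.29-fold, while Farsa had no call at either. The ratio itself was not tested. Farsb (chromosome 1, 78417975 to 78488897, minus strand) overlaps the protein-coding gene Sgpp2 on the other strand.

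Enzymes of the multi-synthetase complex also moved apart. Of its 8 enzyme genes, 6 were called lower at 48 h (Lars, Mars, Iars, Dars, Eprs and Kars), 1 higher (Qars) and 1, Rars, had no call, with a median log2 difference of -1.07. At 24 h 3 of the 8 were called lower and none higher. Over all tested genes 14.2% were called lower and 13.4% higher at 24 h, and 31.0% and 25.7% at 48 h. At 48 h the highest of the 8 levels was 2.37 times the lowest in the wild type line (Dars over Lars) and 5.26 times in the floxed line (Qars over Lars). The 12 cytosolic genes outside the complex had 5 lower and 0 higher calls at 48 h, with a median log2 difference of -0.25, and 5 of 12 is near the 31.0% of all tested genes called lower. Of the 3 scaffold genes none was called at 24 h and 2 were called lower at 48 h. Aimp1 measured 88.5 and 47.8 FPKM at 48 h, 1.85-fold lower, and Eef1e1 at 67.3 and 33.5, 2.01-fold lower. Aimp2, whose locus entry is shared with another gene, stood at 66.4 and 40.4 FPKM with no call. The difference between genes inside and outside the complex was not tested.

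**Figure D3:**
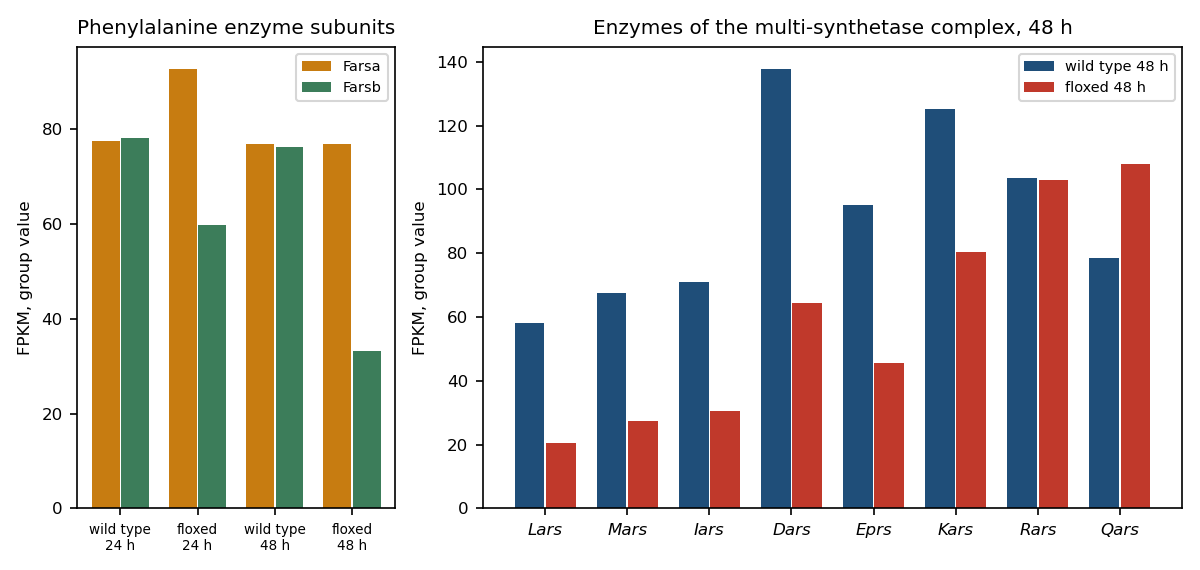
FPKM of the subunit genes Farsa and Farsb in the 4 groups (left) and of the 8 enzyme genes of the multi-synthetase complex at 48 h in both lines (right), with bars from 0 for the authors' group values. The bars of Farsa and Farsb are level in wild type cells and stand at 76.8 and 33.3 in floxed cells at 48 h, and Qars is the only complex gene that is higher in floxed cells.

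Among the mitochondrial genes, 7 were at least 2-fold lower at 48 h, a share that was not counted over all genes. Sars2 (serine) measured 10.6 FPKM in the wild type line and 6.19 in the floxed line at 24 h, and 9.78 and 3.57 at 48 h, 2.74-fold lower, with a call at both times. Wars2 measured 2.84 and 2.01 FPKM at 24 h and 2.80 and 1.04 at 48 h, 2.68-fold lower, also with a call at both times. The other 10 lower genes were called at 48 h only. Ears2, which charges the mitochondrial tRNAs of glutamate and, before a further step, of glutamine, measured 7.15 and 5.48 FPKM at 24 h and 6.77 and 2.69 at 48 h, 2.51-fold lower. Pars2 (proline) measured 5.25 and 4.17 FPKM at 24 h and 5.44 and 2.53 at 48 h, 2.15-fold lower. Iars2 measured 42.7 and 35.9 FPKM at 24 h and 41.7 and 19.6 at 48 h, 2.12-fold lower. Iars2 is the most abundant of the 7, and its locus entry is shared with Rab3gap2 on the opposite strand and with small RNAs. Nars2 (asparagine) measured 5.41 and 4.53 FPKM at 24 h and 5.12 and 2.45 at 48 h, 2.09-fold lower. Rars2 (arginine) measured 20.3 and 16.6 FPKM at 24 h and 20.8 and 10.2 at 48 h, 2.04-fold lower. All 7 had the lower floxed value at both times.

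The further 5 lower mitochondrial genes differed by less than 2-fold at 48 h. Vars2 (valine) measured 8.30 and 7.33 FPKM at 24 h and 8.99 and 4.52 at 48 h, 1.99-fold lower. Tars2 (threonine) measured 26.6 and 22.3 FPKM at 24 h and 28.3 and 15.5 at 48 h, 1.82-fold lower. Fars2, which unlike the cytosolic enzyme for phenylalanine works as a single chain, measured 8.16 and 6.29 FPKM at 24 h and 7.48 and 4.45 at 48 h, 1.68-fold lower. The smallest called differences were those of Aars2 and Cars2. Aars2 (alanine) measured 5.54 and 4.95 FPKM at 24 h and 5.68 and 4.02 at 48 h, 1.41-fold lower. Cars2 (cysteine) measured 13.9 and 12.0 FPKM at 24 h and 15.2 and 11.2 at 48 h, 1.36-fold lower. No call was made at 48 h for Mars2, Yars2 or Hars2. Mars2 (methionine) was called higher at 24 h, with 12.0 and 15.8 FPKM, 1.31-fold, and measured 11.5 and 9.15 at 48 h. Yars2 (tyrosine) measured 27.9 and 28.1 FPKM at 24 h and 26.6 and 21.5 at 48 h. Hars2 (histidine) measured 8.15 and 7.32 FPKM at 24 h and 8.75 and 9.18 at 48 h.

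Lars2, which charges the mitochondrial leucine tRNAs, lay on the other side at both times. It measured 240 FPKM in the wild type line and 380 in the floxed line at 24 h, 1.58-fold higher, and 409 and 590 at 48 h, 1.44-fold higher. Its q is 0.00153 at 24 h and 0.00659 at 48 h in the authors' deposited table. Cytosolic Lars was called lower at both times, so the level of Lars over that of Lars2 was 0.261 and 0.110 at 24 h and 0.142 and 0.0348 at 48 h. Without Lars2 the mitochondrial genes summed to 205 and 179 FPKM at 24 h and 205 and 122 at 48 h, lower in the floxed line. With Lars2 the sums were 445 and 559 FPKM at 24 h and 614 and 712 at 48 h, higher in the floxed line. The cytosolic genes summed to 1816 and 1706 FPKM at 24 h and 1762 and 1267 at 48 h. Lars2 (chromosome 9, 123366927 to 123462666, plus strand) overlaps no other gene of GENCODE M21. Whether reads from similar sequences elsewhere map to Lars2 was not checked, so its level, its calls and the sums that include it carry that limit.

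Levels of most members were close at the 2 times in the wild type line and lower at 48 h in the floxed line. In wild type cells 35 of the 36 genes had a 48 h level between 0.917 times (Fars2) and 1.09 times (Cars2) the 24 h level, whereas Lars2 was 1.70 times as high at 48 h. The median ratio was 0.977 over the family and 0.991 over all genes. In floxed cells the median ratio was 0.703 over the family and 0.937 over all genes, and 33 of the 36 genes had a lower level at 48 h. How many of all genes lay within the wild type range above, or had a lower floxed level at 48 h, was not counted. The lowest ratios were those of Iars at 0.458, Lars and Eprs at 0.490 each and Ears2 at 0.492. Only Lars2 (1.55), Qars (1.32) and Hars2 (1.25) had a higher level at 48 h in floxed cells. The table has no test of the times and does not say whether they were scaled together, so these ratios are given as values.

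**Figure D4:**
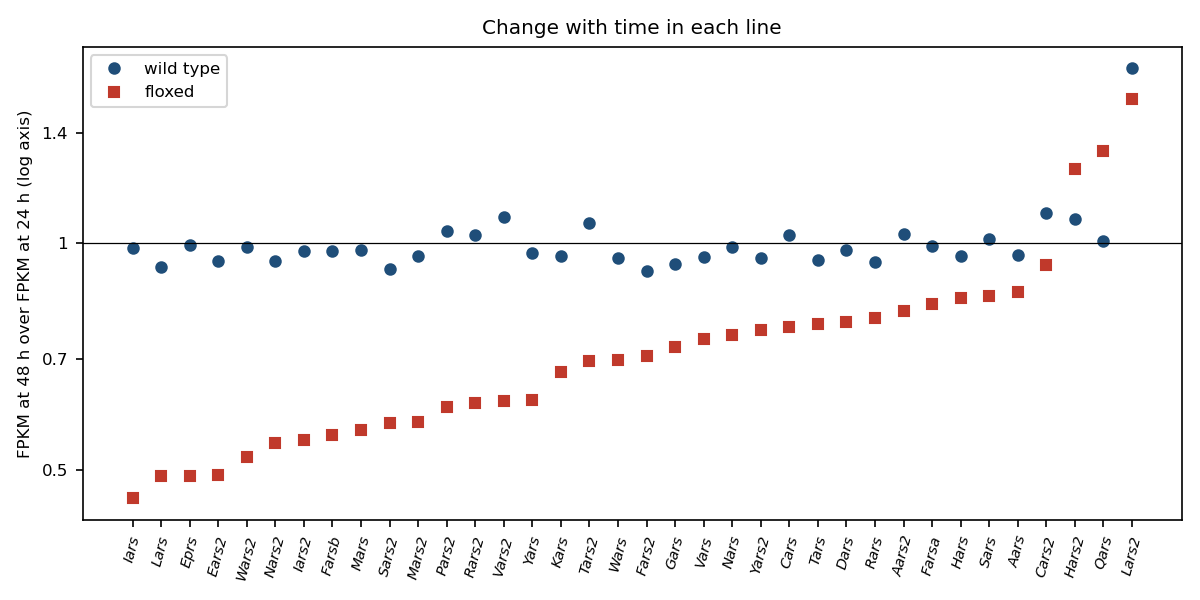
FPKM at 48 h divided by FPKM at 24 h on a log axis for each synthetase gene, with circles for wild type and squares for floxed cells, ordered by the floxed ratio. The wild type circles stay between 0.917 and 1.09 except Lars2 at 1.70, while the floxed squares run from 0.458 for Iars to 1.55 for Lars2.

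RefSeq promoter windows (GRCm38.p6, 250 bases before to 50 bases after the listed start) were matched for 27 of the 36 members. The listed start is not always the start of the GENCODE gene, since some windows, such as those of Aars and Tars2, lie inside it. Each was searched on both strands for TGATGNAA, the core of the element bound by ATF4 with C/EBP partners, and for CACGTG, the E-box bound by MYC with MAX. The windows of Mars, Sars2, Iars and Farsb are shown because these members had the widest differences at 48 h on the log2(FPKM + 1) scale among those with a matched window. That scale shrinks low genes, and by FPKM ratio Wars2 and Ears2, also with a matched window, differed more than Mars, Iars and Farsb. Capitals mark either motif, and a window without capitals holds neither.
Mars (chr10:127311737-127312036, minus strand): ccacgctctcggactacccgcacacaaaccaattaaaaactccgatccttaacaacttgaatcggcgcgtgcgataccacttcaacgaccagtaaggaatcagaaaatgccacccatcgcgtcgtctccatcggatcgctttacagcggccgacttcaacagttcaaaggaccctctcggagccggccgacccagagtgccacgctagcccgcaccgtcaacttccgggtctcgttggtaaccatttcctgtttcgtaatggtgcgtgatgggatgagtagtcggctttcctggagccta
Sars2 (chr7:28741718-28742017, plus strand): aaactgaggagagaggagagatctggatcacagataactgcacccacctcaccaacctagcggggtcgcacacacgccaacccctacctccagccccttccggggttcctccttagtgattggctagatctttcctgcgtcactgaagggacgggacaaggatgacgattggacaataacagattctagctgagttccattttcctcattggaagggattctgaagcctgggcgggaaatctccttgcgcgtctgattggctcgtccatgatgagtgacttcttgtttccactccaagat
Iars (chr13:49681880-49682179, plus strand): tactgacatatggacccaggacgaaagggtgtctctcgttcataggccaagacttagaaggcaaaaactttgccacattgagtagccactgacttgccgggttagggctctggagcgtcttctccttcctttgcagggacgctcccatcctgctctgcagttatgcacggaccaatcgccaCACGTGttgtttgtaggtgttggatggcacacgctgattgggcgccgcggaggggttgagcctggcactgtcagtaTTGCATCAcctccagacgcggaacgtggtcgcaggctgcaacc
Farsb (chr1:78488848-78489147, minus strand): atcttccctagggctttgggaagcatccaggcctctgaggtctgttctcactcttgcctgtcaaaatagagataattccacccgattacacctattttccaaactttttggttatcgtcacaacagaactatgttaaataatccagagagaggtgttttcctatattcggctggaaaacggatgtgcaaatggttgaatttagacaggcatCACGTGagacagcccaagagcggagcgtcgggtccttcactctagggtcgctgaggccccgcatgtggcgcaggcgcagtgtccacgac

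TGATGNAA was present in 5 of 27 windows (18.5%), against 3.97% of all 32851 promoter windows of the table. It was in 5 of 13 cytosolic windows, those of Aars, Gars, Iars, Tars and Yars, and in 0 of 14 mitochondrial windows. CACGTG was present in 5 of 27 windows (Aars, Ears2, Farsb, Iars and Tars; 18.5%, against 7.15% of all windows). Stretches of 60 bases around TGATGNAA follow for Aars, Gars, Tars and Yars, the 4 holders of the motif that were not called lower at 48 h, with that motif in capitals.
Aars: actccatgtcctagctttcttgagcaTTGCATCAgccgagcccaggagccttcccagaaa
Gars: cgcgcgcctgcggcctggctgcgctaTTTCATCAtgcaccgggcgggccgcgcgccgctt
Tars: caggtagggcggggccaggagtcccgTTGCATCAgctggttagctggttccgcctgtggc
Yars: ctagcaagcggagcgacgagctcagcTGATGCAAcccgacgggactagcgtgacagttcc

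The shown match began 112, 30 and 15 bases before the listed start in Aars, Gars and Tars, and after it in Yars and Iars. The Aars window held 2 matches, of which the first is shown. Of the 5 cytosolic genes with TGATGNAA, 1 (Iars) was called lower at 48 h. Of the 8 cytosolic genes whose window lacked it, 6 were called lower, 1 higher (Qars) and 1 (Farsa) had no call. Over all tested genes 31.0% were called lower and 25.7% higher at 48 h. Cars, Hars, Lars, Nars, Rars, Vars and Wars had no matched window and are outside these counts. Among them Lars, Nars, Vars and Wars were called lower at 48 h. The genes were set side by side after their calls were known, and the difference was not tested. With only the 250 bases before the start, 3 of 27 members held TGATGNAA (against 3.45% of all windows) and 3 held CACGTG (against 6.02%). Each member is represented by its first listed window, while the shares over all windows count every window. A match is a run of letters and not a measured binding site.

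Genes of the amino acid response were called in both directions. Of 13 such genes, 4 were called higher and 2 lower at 24 h (against 13.4% and 14.2% of all tested genes), and 4 higher and 5 lower at 48 h (against 25.7% and 31.0%). At 48 h these counts are near the shares over all genes. Asns, the asparagine synthetase, measured 105 and 160.6 FPKM at 24 h, 1.53-fold higher, and 106 and 115 at 48 h with no call. Sesn2, which senses leucine, measured 10.1 and 15.2 FPKM at 24 h, 1.51-fold higher. Sesn2 was again higher at 48 h (10.9 and 19.5 FPKM). Slc3a2 (100.1 and 153 FPKM), the heavy chain of amino acid exchangers, was called higher at 48 h and had no call at 24 h. Slc7a1, a carrier of arginine and lysine, fell from 51.8 to 38.1 FPKM between the lines at 24 h (1.36-fold) and from 48.1 to 16.2 at 48 h (2.97-fold). Slc7a11, the cystine carrier, was 2.20-fold lower at 24 h, at 5.69 and 2.59 FPKM, and 1.66-fold lower at 48 h, at 4.77 and 2.88. Chac1, which degrades glutathione, was called in opposite directions, 1.44-fold higher at 24 h (6.19 and 8.90 FPKM) and 2.11-fold lower at 48 h (8.79 and 4.16 FPKM). Atf4 itself, outside the naming rule, measured 283 and 304 FPKM at 24 h with no call and 301 and 201 at 48 h, called lower. Among 13 cytosolic synthetase genes commonly listed as ATF4 targets, 3 were called lower and 1 higher at 24 h and 8 lower and 0 higher at 48 h. The 7 other cytosolic genes had 2 lower and 0 higher at 24 h and 3 lower and 1 higher at 48 h. The shares over all tested genes were 14.2% lower and 13.4% higher at 24 h and 31.0% and 25.7% at 48 h. The 3 lower genes of the 7 are near that share, and the difference between the lists was not tested.

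Other genes of tRNA charging and handling are set against 14.2% of all tested genes called lower at 24 h and 31.0% at 48 h. The shares called higher were 13.4% at 24 h and 25.7% at 48 h. Of 10 related charging genes 2 were called lower at 24 h and 9 at 48 h, with none higher. Pet112 (also named Gatb), a subunit of the amidotransferase that completes mitochondrial glutamine tRNA, measured 11.7 and 4.66 FPKM at 48 h, 2.52-fold lower. At 24 h Pet112 was 1.38-fold lower. Dtd1, which removes D-amino acids from tRNA, was 2.62-fold lower at 48 h, and Pstk, of the selenocysteine route, 1.36-fold lower at 24 h. The synthetase gene Tarsl2, named after its values were seen, was 1.99-fold lower at 48 h. Of 13 genes of tRNA processing and modification, 3 were called lower at 24 h and 8 at 48 h, with none higher. Mettl1, the enzyme that methylates guanosine in many tRNAs, stood at 41.4 and 13.2 FPKM at 48 h, 3.15-fold lower, and its partner Wdr4 was 1.38-fold lower at 24 h, while Trmt5, another tRNA methyltransferase, was 1.95-fold lower at 48 h. Of 9 genes of tRNA export and delivery none was called at 24 h and 4 were lower at 48 h, a small excess over all genes in so few. Among them were the exportin Xpot at 66.3 and 38.7 FPKM and the mitochondrial elongation factor Gfm1 at 52.0 and 27.2. The locus entry of Gfm1 is shared with another gene.

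Both enzyme classes held lower calls, and the difference between them was not tested. Of 18 class I genes 11 were called lower and 2 higher at 48 h, and of 17 class II genes 11 were lower and none higher. Eprs was left out because it joins both classes. Over all tested genes 31.0% were called lower and 25.7% higher at 48 h. By gene length in GENCODE M21, 8 of 9 members over 50 kb were called lower at 48 h (the exception was Lars2), 7 of 12 between 20 and 50 kb and 8 of 15 under 20 kb, and the difference between these classes was not tested. Among all genes matched to the annotation, 37.7% of those over 50 kb, 33.9% of those between and 25.2% of those under 20 kb were called lower. Spearman's rho between gene length and the log2 difference at 48 h was -0.30 over the 36 members and -0.15 over 10472 genes, a description of genes that share the same libraries. Pars2, the shortest member at 4.21 kb, was called lower, and Fars2, the longest at 609 kb, was called lower by less than Pars2. The plot of gene length shows this spread. In all, 11 members overlap another protein-coding gene in the annotation (Aars, Farsb, Hars, Mars, Wars, Yars, Cars2, Ears2, Fars2, Hars2 and Iars2). The counting is not known to use strand, so reads of such neighbours cannot be told apart. Exosc6 lies on the same strand as Aars, so strand would not separate their reads.

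**Figure D5:**
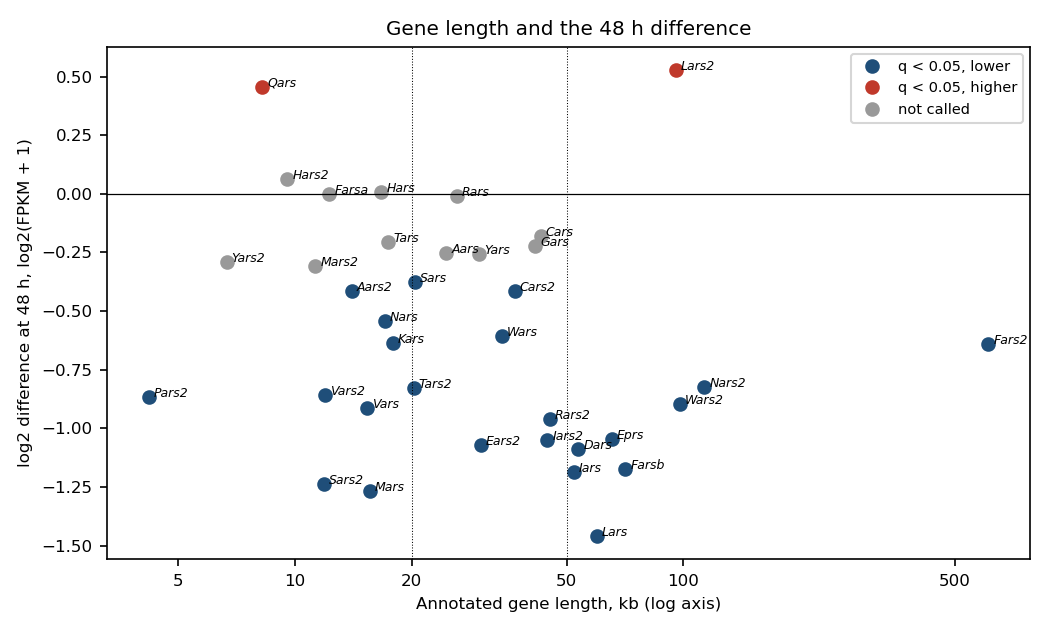
Log2 difference at 48 h on the log2(FPKM + 1) scale against annotated gene length in kb (log axis), 1 point per synthetase gene, coloured by the authors' call at 48 h, with dotted lines at 20 and 50 kb. Of the 9 genes right of 50 kb all but Lars2 are called lower, while genes under 20 kb include called and uncalled members and Qars.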

How the data were processed

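The submitters' processing notes name the build mm10 and the tools Bowtie2, Cuffdiff and Cufflinks 2.1 without their roles. Gene models, strandedness and read depth were not given in the sources used here. According to its header, in the table the authors deposited there is 1 FPKM value per gene and group, with 2 duplicates combined, and per time 1 q-value for the genotypes. The labels call the duplicates biological without saying whether cultures were separate, so q may measure technical spread. FPKM is relative to all other RNA and does not show total RNA per cell.

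With Python 3.11.15, pandas 2.3.3 and SciPy 1.17.1, genes reaching 1 FPKM in any group were kept (11158), leaving out 27 genes whose names had become date numbers. A gene with a q under 1 counts as tested. Folds are ratios of FPKM, and log2 differences use a pseudocount of 1, which understates low genes. Direction and call summaries were tested on simulated data. With 1 value per group no SD, permutation test or left-out duplicate can be had. The members and lists were chosen with earlier results of these data known, and all members could be named; in the other lists the 2 called genes of largest change in each direction are named, and others only where the text says so or to give a list's background. Coordinates are 1-based, from GENCODE M21 (GRCm38, the assembly of mm10). The last 30 bases of 23 of 27 promoter windows lie in a GENCODE transcript of the same gene. Alternatives tried were a q under 0.01, other minimums (none, 5 FPKM), pseudocounts of 0.1 and 5, rescaled or centred groups, and leaving out members with a shared locus entry.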

Additional observations from a re-analysis of the deposited data

How the results depend on the processing

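The counts of cytosolic and of mitochondrial genes called lower at 48 h stayed within 1.5 times, and the lists' medians kept their sign, under the alternatives run, while the median of the mitochondrial genes at 48 h was -0.42 with a pseudocount of 5. With a q under 0.01, the higher cytosolic calls came to 0 at 24 h and 0 at 48 h (Yars and Qars lost theirs), and the mitochondrial calls at 24 h to 1 higher (Lars2) and 1 lower (Sars2). Without members that share a locus entry the higher cytosolic calls at 24 h came to 0, and among genes of at least 5 FPKM the lower mitochondrial calls at 24 h came to 1. The members are few, so 1 gene moves these counts. These uncalled genes changed sign at 48 h: Farsa to 0.061 and Rars to 0.054 when centred on the median of all genes, and Hars to -0.091 and Hars2 to -0.027 with groups rescaled to the same sum. That rescaling moved the median of all genes at 48 h from -0.06 to -0.15. Leaving out Lars2, an alternative chosen after the data were seen, kept the mitochondrial medians within 1.5 times. Leaving out each duplicate was not run, because the table holds 1 value per group. No paired analysis was possible because the columns carry no replicate numbers. Depth is unknown, so no interval or detection limit is given.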
